A study of Homo sapiens with 6 samples.

Results

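The collagen genes were examined in U87-MG glioblastoma cells, in 3 libraries labelled as knockdown of CHRM3, the M3 muscarinic acetylcholine receptor, and 3 libraries of negative control. Members were the protein-coding genes whose symbol is COL, a number, A and a number, and this rule gave 44 of the 61731 rows of the table. They were divided into 11 fibrillar collagens, 6 type IV collagens of the basement membrane and 27 others. Of the 44, 19 had a mean of at least 1 TPM (a transcript's share of its library, corrected for gene length) and were tested. Among these, 6 were lower and 6 were higher in the knockdown-labelled libraries, and 7 did not pass. Over all 13722 tested genes, 24% passed as lower and 12.1% as higher. Fibrillar COL5A1 rose 1.71-fold, basement membrane COL4A2 fell 1.83-fold and network-forming COL10A1 fell 8.03-fold.

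U87-MG is an adherent human glioblastoma line kept in culture. The group called U87_NC carries the label of a normal control and the group called U87_KD that of a CHRM knockdown, and the study describes lentivirus carrying a CHRM3 knockdown sequence. It lists 3 such sequences, named KD1 to KD3, and the labels do not say whether the libraries numbered 1 to 3 are replicates of a single sequence or each a different sequence. Nor do they say whether libraries came from separate cultures or infections, so the p-values measure only the spread between these libraries, which may be technical.

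A collagen molecule is made of chains wound into a triple helix, in which glycine recurs at regular steps. Chains are hydroxylated and folded in the endoplasmic reticulum, secreted, trimmed and crosslinked outside the cell. Fibrillar collagens build the long fibres of connective tissue, type IV collagen forms the sheet under epithelia and around vessels, and the other types decorate fibrils, form beaded filaments or networks, or span the membrane. Normal brain tissue holds little fibrillar collagen, whereas cultured lines with mesenchymal features often make it.

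The targeted gene was examined before the collagens. CHRM3 was at 0.02, 0.09 and 0.13 TPM in the negative control libraries and at 0.13, 0.01 and 0.02 TPM in the knockdown-labelled libraries, and the groups overlapped. Their means were 0.08 ± 0.0557 and 0.0533 ± 0.0666 TPM (SD, n = 3 each), with p = 0.8 in an exact two-sided permutation test whose smallest possible p is 0.1. A loss of CHRM3 RNA was therefore not detectable at this level, and directions are given for the knockdown-labelled libraries whatever their CHRM3 level. The study itself reports efficient knockdown of CHRM3 in U87-MG cells, from measurements other than this sequencing. Each library's TPM summed to the same total, between 22597 and 23311 rows were above 0, and log2 profiles correlated at r = 0.976 to 0.979 within groups (6 pairs) and at 0.964 to 0.969 between them (9 pairs). The glioma and mesenchymal markers were uneven. VIM was at 6574 and 7376 TPM (control and knockdown-labelled means, log2 fold change 0.17, limma adjusted p = 4.156e-04). CD44 was at 597.3 and 473.5 TPM (-0.33, adjusted p = 5.293e-04) and NES at 2.25 and 3.58 TPM (0.50, adjusted p = 0.0151). GFAP was at 1.16 and 1.13 TPM and did not pass (adjusted p = 0.932). SOX2, S100B and OLIG2 were under 1 TPM and AQP4 was at 0.

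Tests used limma on log2(TPM + 1), with p-values adjusted over the 13722 genes that reached a mean of 1 TPM, and a gene passed at an adjusted p under 0.05. Of all tested genes 24% passed as lower and 12.1% as higher, and this background moved with the scaling: 3295 were lower and 1660 higher on the TPM as deposited, against 2250 and 2306 after median-of-ratios scaling. Among the 19 collagens the split was 6 lower and 6 higher on both scales. Their median log2 fold change was -0.16, beside -0.06 over all tested genes. A change of at least 1 on the log2 scale was passed by 1 collagen downward and 0 upward, beside 1.2% and 0.67% of tested genes, and the highest value upward was 0.76. The knockdown-labelled libraries lay wholly below the controls for 8 collagens (32.8% of all tested genes) and wholly above for 8 (17.4% of tested genes). Replicates were close, with a coefficient of variation under 5% in both groups for 9 of the 19. In bulk RNA, fewer cells making a gene and less RNA per cell cannot be told apart.

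**Figure D1:**
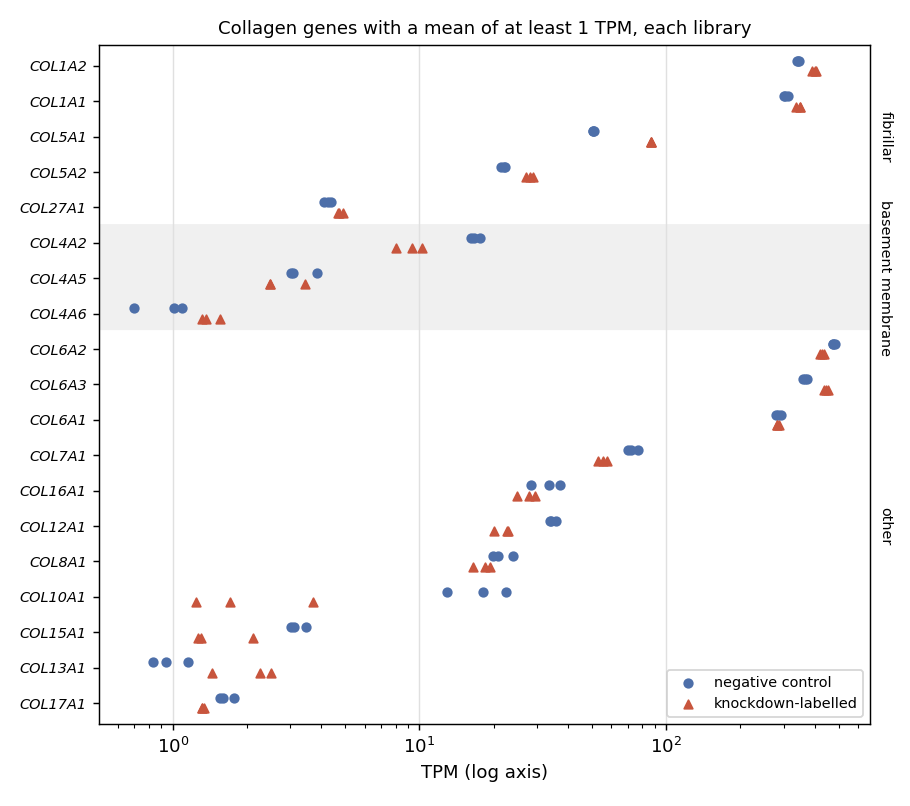
TPM on a log axis of the 19 tested collagen genes, with a point for each of the 3 negative control libraries (circles) and the 3 knockdown-labelled libraries (triangles), grouped by class. COL6A2, COL6A3, COL1A2, COL1A1 and COL6A1 sit at the right, between 277.6 and 485.29 TPM, and the knockdown-labelled points of COL10A1 lie far to the left of its controls.

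The collagen RNA of these cells came mostly from types I and VI. COL6A2, COL6A3, COL1A2, COL1A1 and COL6A1 held 86.2% of the summed collagen TPM in the control libraries and 87.8% in the knockdown-labelled libraries. The sum over all 44 genes was 2048.2, 2037.21 and 2102.28 TPM in the control libraries and 2162.65, 2195.62 and 2132.88 TPM in the knockdown-labelled libraries, 4.90% higher on average without overlap. By class, the fibrillar sum was 725.5 ± 8.32 TPM in control and 863.7 ± 16.1 TPM in knockdown-labelled libraries (SD, n = 3), 19.1% higher without overlap. The basement membrane sum went from 21.2 ± 0.603 to 13.5 ± 1.17 TPM, a change of -36.1%. The sum of the others was 1316 ± 27.1 and 1286.5 ± 17.7 TPM, a ratio of 0.978 that became 1.026 after median-of-ratios scaling. Within the others, type VI was at 1129 ± 19.5 and 1156 ± 16.6 TPM with overlapping groups, and the sum of the remaining genes was lower, at 186.5 ± 7.68 against 130.9 ± 3.74 TPM without overlap. The fibrillar share of collagen RNA was thus 35.2% in control and 39.9% in knockdown-labelled libraries. No test was run on sums over the members.

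**Figure D2:**
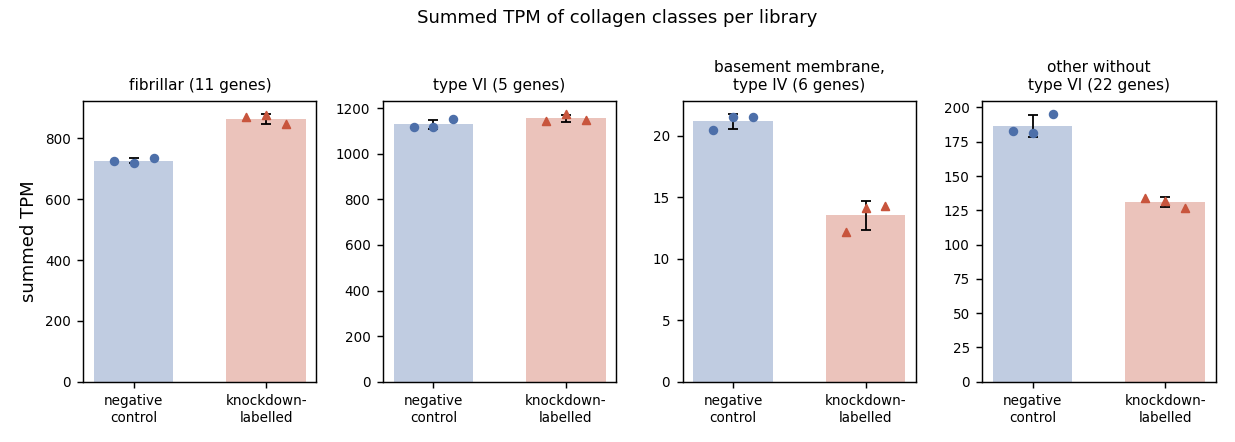
Summed TPM per library of the collagen classes, type VI apart, each panel on its own axis from 0, with points for libraries, bars for the mean and error bars for the SD (n = 3). The fibrillar panel is higher in the knockdown-labelled libraries (863.7 against 725.5 TPM), the panels of type IV (13.5 against 21.2 TPM) and of the others without type VI (130.9 against 186.5 TPM) are lower, and type VI overlaps.

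Of the 11 fibrillar genes 5 were tested, 4 passed as higher, 0 as lower and 1 did not pass. Their median log2 fold change was 0.22 (range 0.14 to 0.76), and all 5 had knockdown-labelled libraries wholly above the controls. Over all tested genes, 12.1% passed as higher, 24% passed as lower and 17.4% lay wholly above the controls. COL5A1 (chr9:134641774-134844843, GRCh38, plus strand), a chain of the type V collagen that starts and limits the width of type I fibrils, had the largest rise among collagens on the log2(TPM + 1) scale. This rank depends on the pseudocount. The low transmembrane member COL13A1 rose more with a pseudocount of 0.5 (0.784 against 0.767) or 0.1 (0.992 against 0.771). COL5A1 was at 50.4, 51.1 and 50.72 TPM in the control libraries and at 86.99, 86.61 and 86.45 TPM in the knockdown-labelled libraries. The spread within each group was below 1 TPM, and the groups stood far apart. The means of 50.7 ± 0.350 and 86.7 ± 0.277 TPM gave a log2 fold change of 0.76 (SE 0.0233, 95% confidence interval 0.70 to 0.82, adjusted p = 5.918e-06). A change of at least 0.5 on the log2 scale in either direction was passed by 8.02% of tested genes and by 6 collagens, 4 lower and 2 higher, of which COL5A1 was the fibrillar member.

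COL5A2, the partner chain of type V, rose less, from 21.9 ± 0.490 to 27.9 ± 0.942 TPM (log2 fold change 0.34, SE 0.0403, adjusted p = 0.00116). COL1A1 and COL1A2, the chains of type I and the main fibre of skin and bone, rose little at high levels. COL1A2 went from 342.2 ± 3.47 to 398.3 ± 8.78 TPM (log2 fold change 0.22, SE 0.0216, adjusted p = 5.744e-04) and COL1A1 from 305.5 ± 6.67 to 345.3 ± 6.96 TPM (0.18, SE 0.0246, adjusted p = 0.00226). An unnamed antisense gene over COL1A2, ENSG00000285090, shares no exon base with it and was at 5.52 and 3.60 TPM on average (log2 fold change -0.50, adjusted p = 0.338). COL27A1, a fibrillar collagen of cartilage, was at 4.24 ± 0.140 and 4.76 ± 0.119 TPM and did not pass (0.14, 95% confidence interval -0.02 to 0.30, adjusted p = 0.158).

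The promoter window of COL5A1 is shown because of this rise. Windows came from RefSeq (GRCh38.p14) and hold 250 bases before a transcript start and 50 after it. The table had 44 windows for 32 of the 44 collagens, and it had none for COL1A1, COL1A2, COL5A2, COL6A1 and COL8A1 among tested members. Here and below, sequences read 5′ to 3′ along the gene's strand, and capitals mark motifs found on either strand. The motifs were the GC box (letters GGGCGG, or CCGCCC on the opposite strand), the CCAAT box (ATTGG on the opposite strand), the TATA box (letters TATAAA) and the AP-1 site (letters TGANTCA).
COL5A1 (chr9:134641553-134641852, plus strand): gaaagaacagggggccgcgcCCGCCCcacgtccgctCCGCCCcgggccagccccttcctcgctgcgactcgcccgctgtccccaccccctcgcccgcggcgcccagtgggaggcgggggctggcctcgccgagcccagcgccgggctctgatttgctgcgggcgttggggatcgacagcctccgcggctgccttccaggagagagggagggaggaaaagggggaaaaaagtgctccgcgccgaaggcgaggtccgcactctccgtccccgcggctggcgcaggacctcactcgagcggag
This window holds 2 GC boxes and none of the other motifs, and 74.0% of its bases are G or C. Over the collagen windows the GC box stood in 24 of 44 (54.5%), beside 45.0% of all 35116 windows. The CCAAT box stood in 31.8% beside 34.6%, the TATA box in 18.2% beside 11.5% and the AP-1 site in 2.27% beside 7.71%. These shares count windows, and some genes have several. COL5A1 has 2 windows that overlap almost fully. By gene, 21 of 32 collagens had a GC box, and the share by gene over all promoters was not computed. A match describes letters and does not show binding.

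Most RNA of type IV collagen, the network of the basement membrane, came from a single chain gene in both groups. COL4A2 (chr13:110305812-110513209, plus strand) was at 16.24, 16.6 and 17.64 TPM in the control libraries and at 8.04, 10.2 and 9.35 TPM in the knockdown-labelled libraries. Every control library was above every knockdown-labelled library. The mean fell from 16.8 ± 0.727 to 9.20 ± 1.09 TPM (log2 fold change -0.81, SE 0.0857, 95% confidence interval -1.02 to -0.60, adjusted p = 7.386e-04). COL4A1, whose chain combines with that of COL4A2 in the common type IV molecule, was almost absent, at 0, 0.03 and 0 TPM in control and at 0.05, 0.08 and 0.01 TPM in knockdown-labelled libraries. TPM is per length, so these levels can be set side by side, and COL4A2 exceeded COL4A1 in all 6 libraries.

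The pair lies head to head on chromosome 13 around a shared promoter, and both windows are printed for that reason. Their RefSeq starts are 127 bases apart and the windows share 226 bases, read on opposite strands.
COL4A1 (chr13:110307108-110307407, minus strand): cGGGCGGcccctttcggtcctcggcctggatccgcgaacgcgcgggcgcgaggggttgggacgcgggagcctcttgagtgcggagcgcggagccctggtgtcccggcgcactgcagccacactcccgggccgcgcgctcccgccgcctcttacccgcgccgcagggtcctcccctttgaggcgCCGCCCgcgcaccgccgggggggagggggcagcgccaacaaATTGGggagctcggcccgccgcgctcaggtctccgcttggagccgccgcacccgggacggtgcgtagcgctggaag
COL4A2 (chr13:110307034-110307333, plus strand): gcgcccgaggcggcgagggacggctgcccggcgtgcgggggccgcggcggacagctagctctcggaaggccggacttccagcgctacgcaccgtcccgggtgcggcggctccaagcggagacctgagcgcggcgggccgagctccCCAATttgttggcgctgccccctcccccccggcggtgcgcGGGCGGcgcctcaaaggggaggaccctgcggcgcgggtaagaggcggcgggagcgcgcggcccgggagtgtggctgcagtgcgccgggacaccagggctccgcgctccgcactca
The COL4A1 window holds 2 GC boxes and 1 CCAAT box, and the COL4A2 window 1 of each. Most letters of the windows are the same DNA, while the levels of the RNAs were not alike. These genes share no exon base in GENCODE.

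The other type IV genes also lie in head-to-head pairs. By their GENCODE gene starts, COL4A6 and COL4A5 on chromosome X are 347 bases apart and COL4A4 and COL4A3 on chromosome 2 are 112 bases apart. On this measure, which differs from the RefSeq starts above, COL4A1 and COL4A2 are 1421 bases apart. COL4A5 was at 3.31 ± 0.466 TPM in control and 2.80 ± 0.546 TPM in knockdown-labelled libraries (log2 fold change -0.19, adjusted p = 0.338). COL4A6 was at 1.09, 1.01 and 0.7 TPM in control and at 1.56, 1.32 and 1.36 TPM in knockdown-labelled libraries. Its groups did not overlap, yet it did not pass (0.32, adjusted p = 0.122), and its control mean of 0.933 ± 0.206 TPM lay under 1 TPM. COL4A3 and COL4A4, the chains that join COL4A5 in the kidney filter, stayed at or below 0.12 TPM in every library. The class thus had 1 gene lower, 0 higher and 2 that did not pass, beside 24% lower and 12.1% higher of all tested genes. Its median log2 fold change was -0.19 over 3 genes (-0.302 without knockdown-labelled library 3 and -0.100 without control library 2). The unadjusted limma p of COL4A6 was 0.0584.

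Type VI collagen, which forms beaded filaments close to the cell surface, was the most abundant type, and its chain genes moved apart. COL6A2 fell from 478.5 ± 5.89 to 428.7 ± 8.41 TPM (log2 fold change -0.16, SE 0.0206, adjusted p = 0.00169). COL6A3 rose from 366.1 ± 7.51 to 443.5 ± 7.25 TPM (0.28, SE 0.0223, adjusted p = 2.598e-04). COL6A1 was at 284.8 ± 7.57 and 283.5 ± 2.34 TPM, with a log2 fold change of -0.01 (95% confidence interval -0.06 to 0.05, adjusted p = 0.862) whose sign turned positive after median-of-ratios (0.063) and quantile (0.075) scaling. In the knockdown-labelled libraries COL6A3 was the most abundant collagen gene, ahead of COL6A2 in each library, and in the control libraries COL6A2 led. COL6A5 and COL6A6 were at or below 0.01 TPM.

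COL6A1 and COL6A2 are neighbours on the same strand of chromosome 21, with 93047 bases between them, and COL6A3 lies on chromosome 2. The windows of COL6A2 and COL6A3 are printed because these chains of 1 trimer moved in opposite directions.
COL6A2 (chr21:46097862-46098161, plus strand): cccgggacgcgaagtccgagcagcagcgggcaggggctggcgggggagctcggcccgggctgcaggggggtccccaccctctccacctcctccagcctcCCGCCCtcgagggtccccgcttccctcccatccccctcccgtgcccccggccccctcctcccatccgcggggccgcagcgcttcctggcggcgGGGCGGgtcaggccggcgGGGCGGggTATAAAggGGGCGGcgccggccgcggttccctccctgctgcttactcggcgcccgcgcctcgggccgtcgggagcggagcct
COL6A3 (chr2:237414115-237414414, minus strand): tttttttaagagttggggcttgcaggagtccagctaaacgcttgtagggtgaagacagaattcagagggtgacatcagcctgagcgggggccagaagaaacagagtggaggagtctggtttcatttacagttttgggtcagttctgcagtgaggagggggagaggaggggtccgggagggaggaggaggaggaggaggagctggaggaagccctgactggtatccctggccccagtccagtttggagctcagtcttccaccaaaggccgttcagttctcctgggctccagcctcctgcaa
The COL6A2 window holds 4 GC boxes and 1 TATA box with 79.3% G or C, and the COL6A3 window holds none of the letters searched with 56.3% G or C.

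Ratios between chains of 1 type, taken within a library, do not change when all its genes are scaled by a single factor. Quantile normalization and the correction for GC content and length do not use a single factor, and they can move these ratios. The ratio of COL6A3 to COL6A1 was 1.32, 1.26 and 1.28 in the control libraries and 1.57, 1.58 and 1.55 in the knockdown-labelled libraries. The ratio of COL6A1 to COL6A2 was 0.595 ± 0.0102 in control and 0.661 ± 0.00841 in knockdown-labelled libraries (SD, n = 3). Neither ratio overlapped between groups. The ratio of COL5A1 to COL5A2 was 2.32 ± 0.0446 and 3.10 ± 0.0957, again without overlap. For type I the ratio of COL1A1 to COL1A2 was nearly constant, at 0.893 ± 0.0191 and 0.867 ± 0.00910, and the lowest control library (0.878) lay just above the highest knockdown-labelled library (0.876). A type I molecule commonly has more COL1A1 than COL1A2 chains, whereas here COL1A2 RNA was the higher in every library.

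**Figure D3:**
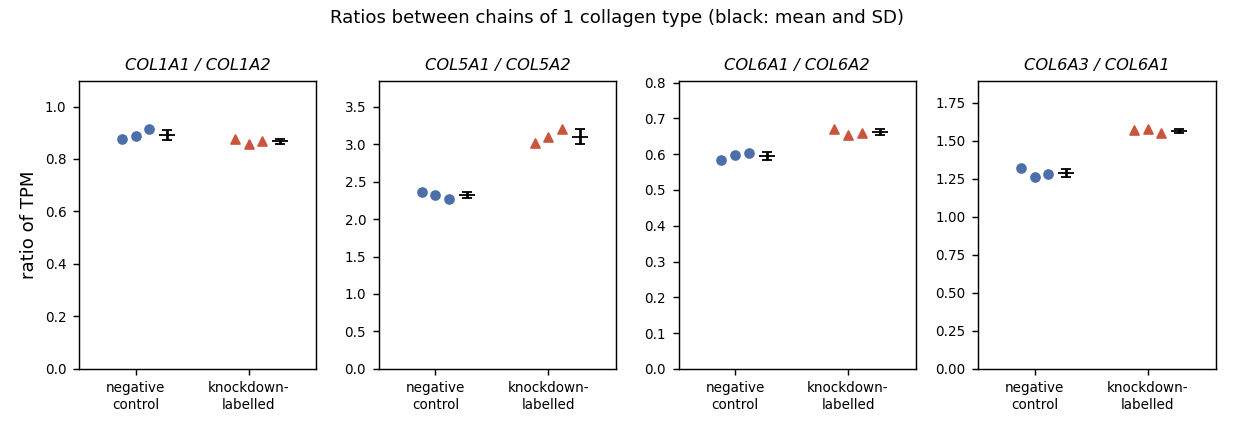
Ratio of TPM between chain genes of 1 collagen type in each library, each panel from 0, with the mean and SD (n = 3) in black. COL5A1 to COL5A2 (2.32 and 3.10), COL6A1 to COL6A2 (0.595 and 0.661) and COL6A3 to COL6A1 (1.29 and 1.56) were higher in the knockdown-labelled libraries, and COL1A1 to COL1A2 (0.893 and 0.867) was slightly lower.

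The largest change among tested collagens was that of COL10A1 (chr6:116118923-116158747, minus strand), the network-forming collagen known from hypertrophic cartilage. It was at 18.12, 12.88 and 22.37 TPM in the control libraries and at 1.71, 3.7 and 1.24 TPM in the knockdown-labelled libraries. Libraries varied within both groups, but the highest knockdown-labelled value was far below the lowest control. The mean fell from 17.8 ± 4.75 to 2.22 ± 1.31 TPM (log2 fold change of TPM + 1 of -2.59, SE 0.310, 95% confidence interval -3.34 to -1.84, adjusted p = 0.00122). NT5DC1 runs over COL10A1 on the opposite strand without sharing an exon base, and at 27.1 ± 1.39 and 27.9 ± 3.74 TPM it did not pass (0.03, 95% confidence interval -0.19 to 0.26, adjusted p = 0.813). COL8A1, of the same network-forming group and a product of vessel walls, was at 21.6 ± 2.16 and 18.1 ± 1.43 TPM (-0.24, adjusted p = 0.0727).

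The COL10A1 window is printed because of the size of this fall. RefSeq gives 3 windows for the gene, and this is the window whose start lies 1 base from that of the lowest-numbered GENCODE transcript.
COL10A1 (chr6:116126083-116126382, minus strand): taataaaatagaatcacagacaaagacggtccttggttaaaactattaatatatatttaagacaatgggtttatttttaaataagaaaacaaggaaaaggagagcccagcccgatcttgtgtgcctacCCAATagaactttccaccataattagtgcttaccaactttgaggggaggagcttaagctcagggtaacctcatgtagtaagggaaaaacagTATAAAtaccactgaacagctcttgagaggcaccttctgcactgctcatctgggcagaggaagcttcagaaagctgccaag
It holds 1 TATA box and 1 CCAAT box, no GC box and 40.3% G or C, beside a median of 63.7% over the collagen windows and 58.7% over all windows. Another window of COL10A1 (chr6:116158723-116159022) was the only collagen window with an AP-1 site, at 2 positions.

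Collagens that bind fibrils or anchor the basement membrane held the remaining falls. COL12A1, which lies along type I fibrils, was at 33.83, 34.07 and 35.77 TPM in control and at 22.83, 22.55 and 20.04 TPM in knockdown-labelled libraries. The groups were tight and did not overlap, and the mean fell from 34.6 ± 1.06 to 21.8 ± 1.54 TPM (log2 fold change -0.64, SE 0.0576, adjusted p = 3.800e-04). COL7A1, the anchoring fibril of skin, fell from 73.1 ± 3.43 to 55.4 ± 2.51 TPM (-0.40, SE 0.0479, adjusted p = 0.00127). COL15A1, a proteoglycan collagen beside basement membranes, was at 3.01, 3.11 and 3.47 TPM in control and at 2.12, 1.27 and 1.3 TPM in knockdown-labelled libraries. Its mean fell from 3.20 ± 0.242 to 1.56 ± 0.482 TPM (-0.73, SE 0.151, adjusted p = 0.0114). COL16A1, another fibril-associated collagen, was at 33.0 ± 4.34 and 27.39 ± 2.31 TPM and did not pass (-0.25, adjusted p = 0.108), though it passed without control library 1 (-0.36, adjusted p = 0.0305).

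The transmembrane collagens were low. COL13A1, found at neuromuscular junctions and cell contacts, was at 0.83, 0.94 and 1.15 TPM in control and at 2.5, 1.45 and 2.26 TPM in knockdown-labelled libraries. All knockdown-labelled libraries were above the controls, whose mean lay under 1 TPM. The means of 0.973 ± 0.163 and 2.07 ± 0.550 TPM gave a log2 fold change of 0.62 (SE 0.172, adjusted p = 0.0313). This call was lost when control library 1, 2 or 3 was left out (adjusted p = 0.0900, 0.0792 and 0.0530) and when knockdown-labelled library 1 or 3 was left out (0.0924 in both cases), and with the replicate number as a block (0.0602). COL17A1, of the hemidesmosome, was at 1.64 ± 0.115 and 1.33 ± 0.0115 TPM and did not pass (-0.18, adjusted p = 0.246). Over the class of others, 5 genes were lower, 2 higher and 4 did not pass, with a median log2 fold change of -0.24. The shares over all tested genes were 24% lower and 12.1% higher.

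**Figure D4:**
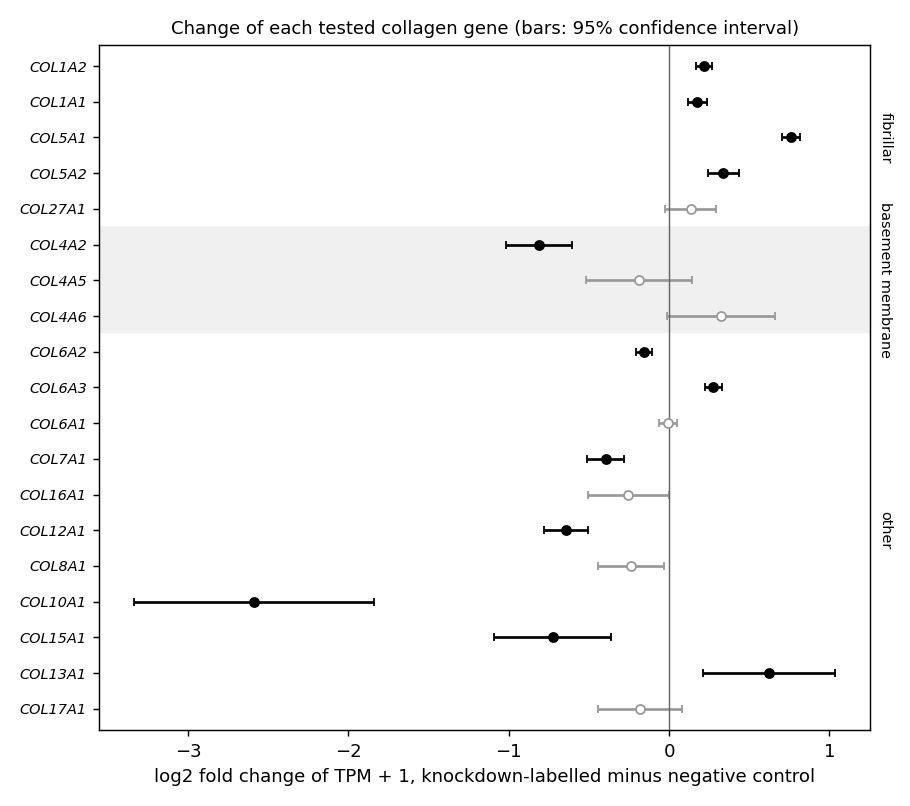
Log2 fold change of TPM + 1, knockdown-labelled minus negative control, of the 19 tested collagen genes, with 95% confidence intervals from limma (n = 3 per group); filled points passed at an adjusted p under 0.05 and open grey points did not. All 5 tested fibrillar genes lie right of 0, and COL10A1 stands alone at -2.59.

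The other 25 collagens had a mean under 1 TPM. The highest of them was COL5A3, with a mean of 0.422 TPM over the 6 libraries, and the lowest of the tested genes was COL4A6 with 1.17 TPM. COL2A1, COL22A1, COL23A1 and COL24A1 were listed at 0 in every library, and 18 had a mean below 0.1 TPM. In a fit without a limit on low values 21 could be fitted, and 2 of them passed, both as higher, beside 4.55% higher and 8.71% lower of the 30412 genes of this fit. COL14A1, a fibril-associated collagen of tendon and skin, was at 0.01, 0.02 and 0.01 TPM in control and at 0.13, 0.13 and 0.15 TPM in knockdown-labelled libraries (log2 fold change of TPM + 1 of 0.17, adjusted p = 0.00932). COL21A1, of blood vessel walls, was at 0, 0.02 and 0.11 TPM and at 0.26, 0.19 and 0.35 TPM (0.28, adjusted p = 0.0448). Both stayed at levels where the rounding of the table leaves little precision.

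Among low fibrillar members, COL5A3, another type V chain, was at 0.51, 0.57 and 0.64 TPM in control and at 0.18, 0.31 and 0.32 TPM in knockdown-labelled libraries. This order was opposite to that of COL5A1 and COL5A2, but the gene did not pass (-0.31, adjusted p = 0.0536). COL3A1, which joins type I in soft tissues, was at 0.1, 0.18 and 0.06 TPM and at 0.2, 0.29 and 0.3 TPM (0.18, adjusted p = 0.119). It ends 19150 bases from COL5A2, tail to tail on chromosome 2. COL11A1 was at 0.117 and 0.107 TPM and COL11A2 at 0.0833 and 0.0667 TPM, control and knockdown-labelled means. Of the other low members, COL9A2 was at 0.313 and 0.19 TPM, COL8A2 at 0.113 and 0.133 TPM, COL18A1 at 0.0533 and 0.147 TPM, COL28A1 at 0.0467 and 0.113 TPM and COL20A1 at 0.04 and 0.00333 TPM. COL9A1, COL9A3, COL19A1, COL25A1, COL26A1, COL6A5, COL6A6 and COL4A3 did not exceed a mean of 0.0167 TPM in either group.

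Genes that act on collagen chains inside the cell were read from lists chosen with earlier results of these data known. Counts of this and the following lists stand beside 24% lower and 12.1% higher of all tested genes. Of 14 tested hydroxylases and chaperones, 6 were lower, 2 higher and 6 did not pass (median log2 fold change -0.05), and the split became 3 and 3 (median 0.02) after median-of-ratios scaling and 4 and 3 after quantile normalization. PLOD2, the lysyl hydroxylase of the chain ends that take up crosslinks, rose from 91.7 ± 1.89 to 163.7 ± 0.740 TPM (0.83, SE 0.0235, adjusted p = 5.143e-06). P4HA1, a catalytic chain of prolyl hydroxylase, rose from 55.1 ± 1.72 to 76.7 ± 1.12 TPM (0.47, adjusted p = 1.361e-04). PLOD3, which also adds sugars, fell from 126.1 ± 3.98 to 99.95 ± 6.55 TPM (-0.33, adjusted p = 0.00334). Of 8 secretion genes, 3 were higher, 0 lower and 5 did not pass (median 0.05), with SEC13 at -0.06 and an unadjusted limma p of 0.0332. CREB3L1, a transcription factor of the secretory pathway known to act on type I collagen genes, rose from 41.2 ± 1.16 to 65.1 ± 1.18 TPM (0.65, adjusted p = 4.098e-05). The vesicle coat genes SEC23A (0.18, adjusted p = 0.0136) and SEC24D (0.13, adjusted p = 0.0142) rose slightly.

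Outside the cell, propeptide cleavage had 3 tested genes, of which 2 were higher and 1 did not pass (median 0.26). After median-of-ratios scaling and after quantile normalization all 3 were higher. The shares over all tested genes were again 12.1% higher and 24% lower. Both enhancers of the C-proteinase rose, PCOLCE from 123.7 ± 2.45 to 148.0 ± 1.47 TPM (log2 fold change 0.26, adjusted p = 4.156e-04) and PCOLCE2 from 44.2 ± 3.29 to 62.7 ± 3.01 TPM (0.50, adjusted p = 0.00136). Of 5 crosslinking genes, 1 was lower, 1 higher and 3 did not pass (median -0.05 as deposited, 0.02 after median-of-ratios scaling). The lysyl oxidase LOXL1 rose from 155.3 ± 6.14 to 242.3 ± 4.23 TPM (0.64, adjusted p = 4.376e-05), and LOXL2 fell from 235.4 ± 3.18 to 207.7 ± 6.56 TPM (-0.18, adjusted p = 0.00347). Among 6 fibril partners, 4 were lower and 2 higher (median -0.51). DCN, decorin, which coats type I fibrils, was at 60.78, 59.54 and 63.19 TPM in control and at 7.19, 9.46 and 10.63 TPM in knockdown-labelled libraries (-2.64, SE 0.124, adjusted p = 3.053e-05). POSTN, periostin, fell from 4.58 ± 0.173 to 2.68 ± 0.745 TPM (-0.62, adjusted p = 0.0221), and THBS1, thrombospondin 1, rose from 0.997 ± 0.00577 to 4.92 ± 0.478 TPM (1.56, adjusted p = 9.732e-05).

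The basement membrane partners of type IV had 13 tested genes, of which 2 were lower, 4 higher and 7 did not pass (median 0.14). After median-of-ratios scaling and after quantile normalization 2 were lower and 5 higher. For this and the next lists, the shares over all tested genes were 24% lower and 12.1% higher. LAMA1, a laminin chain, fell from 4.47 ± 0.348 to 2.78 ± 0.115 TPM (log2 fold change -0.53, adjusted p = 0.00382) and LAMB2, another laminin chain, from 67.3 ± 2.24 to 49.2 ± 6.54 TPM (-0.45, adjusted p = 0.0102). NID2, nidogen 2, which links laminin to type IV collagen, rose from 15.2 ± 0.635 to 21.4 ± 1.29 TPM (0.47, adjusted p = 0.00135), and its relative NID1 stayed at or below 0.06 TPM. Of 7 collagen receptors, 2 were lower, 1 higher and 4 did not pass (median -0.06), and after median-of-ratios scaling 2 were lower and 2 higher. ITGA2, an integrin chain, fell (-0.42, adjusted p = 0.00516), as did the receptor kinase DDR1 (-0.35, adjusted p = 0.00636), and ADGRG1, an adhesion receptor that binds type III collagen, rose (0.40, adjusted p = 0.0033). Of 7 collagen-degrading enzymes, 5 were lower, 1 higher and 1 did not pass (median -0.17), against 4 and 2 after median-of-ratios scaling. MMP1, the interstitial collagenase, fell from 111.7 ± 2.68 to 8.77 ± 0.384 TPM (-3.53, SE 0.0417, adjusted p = 1.428e-07), FAP, a cell surface protease, from 45.2 ± 0.678 to 27.6 ± 0.386 TPM (-0.69, adjusted p = 2.450e-05), and CTSK, cathepsin K, rose from 147.3 ± 1.25 to 175.7 ± 2.79 TPM (0.25, adjusted p = 3.039e-04).

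Markers of other cell types were read beside these results. The 4 leukocyte markers summed to 0.13 to 0.28 TPM in control and 0.12 to 0.24 TPM in knockdown-labelled libraries, with TYROBP and CD3E at 0 in every library. The 4 endothelial markers summed to 3.37 to 3.58 TPM and 1.43 to 1.51 TPM, nearly all of it KDR, with PECAM1, VWF and CDH5 near 0. KDR passed as lower (log2 fold change -0.86, adjusted p = 8.572e-04). The 4 epithelial markers summed to 2.87 to 3.83 TPM and 7.49 to 9.42 TPM, led by KRT8 (2.27 and 6.73 TPM), with CDH1 at 0 in every control library. KRT8 passed as higher (log2 fold change 1.24, adjusted p = 7.656e-04), and EPCAM did not pass (0.34, adjusted p = 0.160). The 5 fibroblast or mural cell markers summed to 152.65 to 160.52 TPM and 192.39 to 204.02 TPM without moving together. ACTA2 rose from 57.6 to 158.2 TPM (log2 fold change 1.44, adjusted p = 3.801e-06) and PDGFRB from 5.44 to 10.1 TPM (0.78, adjusted p = 0.00271), whereas DCN and LUM fell and PDGFRA stayed under 1 TPM. The part of these markers in the collagen results was not tested.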

How the data were processed

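RNA of U87-MG cells was sequenced in 3 knockdown-labelled and 3 negative control libraries. The authors deposited a single table of TPM values, already normalized to gene length and to each library's total, so read depth is unknown and no counting error can be given. The submitters' processing notes name fastp, RSEM and GRCh38.p13, without versions. The labels name an RNeasy extraction and a SMARTER library kit, the methods TRIzol and TruSeq. Strand use in counting is not given in the sources used here.

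Of 61541 Ensembl identifiers 61369 had a symbol and 58366 were in GENCODE 29 (GRCh38), the source of gene types and coordinates. The 190 other rows are unannotated loci, and 0 columns lacked a sample. The 13722 genes that reached a mean of 1 TPM were tested on the scale of log2(TPM + 1), using R 4.3.3 and limma 3.58.1 (lmFit, eBayes with trend, group as the only term), with Benjamini-Hochberg adjustment at 0.05. The pseudocount of 1 understates the change of low genes. The procedure was tested on simulated data. A leukocyte marker of the planned list is not reported here.

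All members are named, with the value in every library where they passed with a log2 fold change of 0.5 or more in size. From each context list up to 3 passing genes with the largest change are named. Overlapping genes are named where both reach 1 TPM. The members, classes and lists were chosen with earlier results of these data known, and the low members, markers and partner genes given beyond this rule were chosen after their values were seen. Alternatives varied the pseudocount, the limit on low values, the scaling, the features, the variance model, a replicate block, GC content and length, and each library left out.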

Additional observations from a re-analysis of the deposited data

How the results depend on the processing

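Over all alternatives 5 to 7 collagens were lower and 5 to 8 higher, beside 6 and 6, and 336 of 355 values of single genes kept their direction and side of the threshold. Of the rest, 8 were the lost call of COL13A1. COL6A1, which did not pass in any fit, turned from -0.006 to 0.063 under median-of-ratios scaling, to 0.075 under quantile normalization and to 0.046 with the correction for GC content and length, alone or with the replicate block, and leaving out single libraries gave -0.025 to 0.013. In 6 values a call was gained: COL16A1 without control library 1, COL17A1 and COL27A1 without the trend and without moderation, and COL4A6 without the trend, which made 1 basement membrane gene higher in place of 0.

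The count of higher genes among the others went from 2 to 1 with a limit of 5 TPM, without moderation and with the replicate block, and over single libraries left out it ranged from 1 to 2. With a pseudocount of 0.1, 2 collagens in place of 1 fell by at least 1 on the log2 scale. Counting types VII, XV and XVIII as basement membrane gave 3 lower genes in place of 1 and a median of -0.395. Of all tested genes, 1846 in place of 3295 were lower once GC content, length and the block were corrected for. Deviations of same-numbered libraries correlated at -0.0198, 0.0341 and 0.0334, and those of differently numbered libraries at -0.0656 to 0.0336. These values show no pairing by replicate number, though so few libraries cannot exclude one. The replicate block left 5 collagens higher and 6 lower, losing COL13A1.

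Medians moved with the choice of genes and the scaling. The median over all collagens (-0.158) was -0.002 when all genes above 0 were fitted, -0.008 at 0.1 TPM, -0.088 under median-of-ratios scaling and -0.163 to -0.100 over single libraries left out, the last without control library 2. The fibrillar median (0.218) was 0.176 with no limit, 0.179 at 0.1 TPM, 0.279 at 5 TPM, 0.288 under median-of-ratios scaling and 0.254 when corrected for GC content and length, alone or with the block. The basement membrane median (-0.187) was -0.008 with no limit and -0.811 at 5 TPM, where a single gene remained, and over single libraries left out it ranged from -0.302 without knockdown-labelled library 3 to -0.100 without control library 2. The median of the others (-0.239) was -0.005 with no limit, -0.158 at 0.1 TPM and -0.157 under quantile normalization. Under median-of-ratios scaling the knockdown over control ratio of summed TPM was 1.101 for all collagens (1.049 as deposited), 1.250 for fibrillar (1.191) and 1.026 for others (0.978), which crosses 1. Limits admit more genes near 0 or fewer genes by construction, and the cause of the other shifts was not tested. TPM keeps no read depth, so the precision of genes near 0 is unknown.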

Other observations

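Proteins that carry a collagen-like stretch without being collagens were read after the values of the collagens had been seen. Of 20 such genes 5 had a mean of at least 1 TPM, and of these 2 were lower, 2 higher and 1 did not pass. Over all tested genes, 24% were lower and 12.1% higher. C1QTNF1, a secreted relative of adiponectin, was at 43.1, 46.04 and 44.08 TPM in control and at 24.5, 23.9 and 21.57 TPM in knockdown-labelled libraries (log2 fold change -0.90, SE 0.0555, adjusted p = 9.120e-05). Its relative C1QTNF2 fell from 4.30 ± 0.223 to 2.18 ± 0.0520 TPM (-0.74, adjusted p = 8.235e-04). C1QTNF6, of the same family, rose from 2.25 ± 0.242 TPM to 3.71 TPM, the value of each knockdown-labelled library (0.54, adjusted p = 0.00513). SCARA3, a scavenger receptor-like protein, rose from 15.8 ± 0.513 to 18.2 ± 0.701 TPM (0.19, adjusted p = 0.0213). EMILIN2, an elastic fibre glycoprotein, was at 3.04 ± 0.284 and 3.69 ± 0.270 TPM and did not pass (0.22, adjusted p = 0.118). Members of a single family thus stood in both directions, and the counts of 2 and 2 were the same after median-of-ratios and quantile scaling.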
